A study of Mus musculus with 5 samples.

Results

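Transcription factors that direct myeloid differentiation were followed through the bone marrow of mice carrying B-ALL: Spi1, Cebpa, Cebpb, Cebpd, Cebpe, Gfi1, Irf8, Runx1 and Tcf4. They were taken as a list of 9 names, and 8 of the 9 had a row among the 28692 genes of the matrices; Cebpd was not analysed here. The samples were bone marrow of 5 non-irradiated young adult C57BL/6J mice, each injected through the tail vein with BCR-ABL1+ pre-B ALL cells. The day 0 mouse was killed directly after the injection, so it carried the graft as the others did, and the other mice were killed at day 3, day 6, day 9 or day 12. Cells flushed from femurs and tibias were pooled with cells released from the crushed bones by collagenase and DNase, red cells were lysed, and 1 droplet library (10x 3′ v2) was made per mouse. Leukemia cells were not separated from host cells. With 1 mouse per day a day cannot be told apart from its mouse and library, no test between days was possible, and every interval below is a 95% exact interval that covers counting error only.

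Each factor has a textbook place in the making of myeloid cells. PU.1, encoded by Spi1, is an ETS-family activator needed for both granulocytes and monocytes, and C/EBPα, encoded by Cebpa, opens the granulocyte-monocyte programme in progenitors. C/EBPε, from Cebpe, drives the secondary granule genes of neutrophils, GFI1 is a repressor that holds monocyte genes down in the neutrophil branch, and IRF8 promotes monocytes and dendritic cells at the expense of neutrophils. RUNX1 acts at the stem and progenitor stages, C/EBPβ in inflammatory and mature myeloid cells, and E2-2, encoded by Tcf4, sets plasmacytoid dendritic cell identity.

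The 5 libraries held between 33425695 and 43554233 UMIs, unique molecules counted per gene and cell. Of 32135 barcodes with at least 500 UMIs, 29679 with at most 10% mitochondrial UMIs were kept as cells, between 4870 and 6944 per library with a median of 3143 to 4397 UMIs per cell. Of 31551 barcode sequences, 574 occurred in more than 1 library. The cells fell into 34 clusters, which were named from marker genes; the factors and the other listed regulators were left out of the genes used for clustering. In all, 22908 cells fell into 11 myeloid classes and 231 cells stayed unnamed. Basophil or mast-like (63) and macrophage-like cells (48) were not among these 11 classes. Early progenitor-like cells carried Cd34, Kit and Meis1, and GMP-like cells (granulocyte-monocyte progenitors) carried Mpo, Elane and Prtn3. The neutrophil classes ran from Fcnb neutrophil-like cells (Fcnb, Mki67) through Ltf neutrophil-like (Ltf, Camp, Ngp) and Mmp8 neutrophil-like cells (Mmp8, Retnlg) to late neutrophil-like cells (Il1b, Cxcr2). Monocyte progenitor-like, classical monocyte-like and nonclassical monocyte-like cells and conventional and plasmacytoid dendritic-like cells made up the rest. The monocyte progenitor-like class was a single cluster, c11, whose top 10 genes held 2 classical monocyte markers (F13a1, which both marker lists hold, and Fn1) and 1 of its own, so its values between days are those of that cluster. Nonclassical monocyte-like and conventional dendritic-like cells reached 20 cells only at days 3, 6 and 9, and the other 9 classes reached 20 cells in all 5 libraries. Scrublet marked 2.52% of the day 0 cells and at most 0.0539% of the cells of any later library as doublets, so the caller did not work and no doublets were removed. Classes are clusters of the same cells, so differences between classes are described within each library and not tested.

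Irf8 and Gfi1, a pair whose levels ran opposite ways among the GMP-like sub-clusters described below, are shown here with the 250 bases upstream of their first RefSeq start (GRCm38.p6, printed 5′ to 3′ on the gene's strand). Entries of the promoter table were at hand for Cebpa, Cebpb, Gfi1, Irf8 and Runx1. Capitals mark letters that match a searched motif on either strand. The motifs were TTGCNNAA for C/EBP, GAGGAA for PU.1-like ETS sites, AAATCA for the GFI1 core, TGTGGT for RUNX and CANNTG for the E-box. The Irf8 window, chr8:120736108-120736357 on the plus strand, ends at the annotated start of the gene and held 1 GFI1 core, which reads TGATTT on the printed strand. The Gfi1 window, chr5:107725806-107726055 on the minus strand, overlaps the upstream end of the longer annotated gene and held 1 C/EBP match and 1 E-box.
Irf8: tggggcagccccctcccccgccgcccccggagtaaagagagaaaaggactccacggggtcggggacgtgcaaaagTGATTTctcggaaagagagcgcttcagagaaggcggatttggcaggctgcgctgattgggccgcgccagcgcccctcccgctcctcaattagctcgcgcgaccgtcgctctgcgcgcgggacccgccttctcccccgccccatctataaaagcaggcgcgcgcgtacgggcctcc
Gfi1: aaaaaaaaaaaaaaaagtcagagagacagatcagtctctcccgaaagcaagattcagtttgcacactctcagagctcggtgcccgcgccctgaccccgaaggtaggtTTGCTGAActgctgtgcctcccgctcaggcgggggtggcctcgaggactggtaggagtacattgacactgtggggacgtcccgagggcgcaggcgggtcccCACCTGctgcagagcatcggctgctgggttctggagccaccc
The Cebpa and Cebpb windows held none of the 5 motifs. Among 32851 promoter windows of the same length, 9.56% held the C/EBP letters, 23.3% the ETS letters, 12.4% the GFI1 core, 14.0% the RUNX letters and 66.2% an E-box. A match describes letters in a window and not a site in use.

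Levels are given as UMIs of a gene per 10000 UMIs summed over the cells of a class in a library, and T-like cells, which should lack most of these factors, serve as the background that free RNA gives. The plot of levels by class shows all 8 factors.

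**Figure D1:**
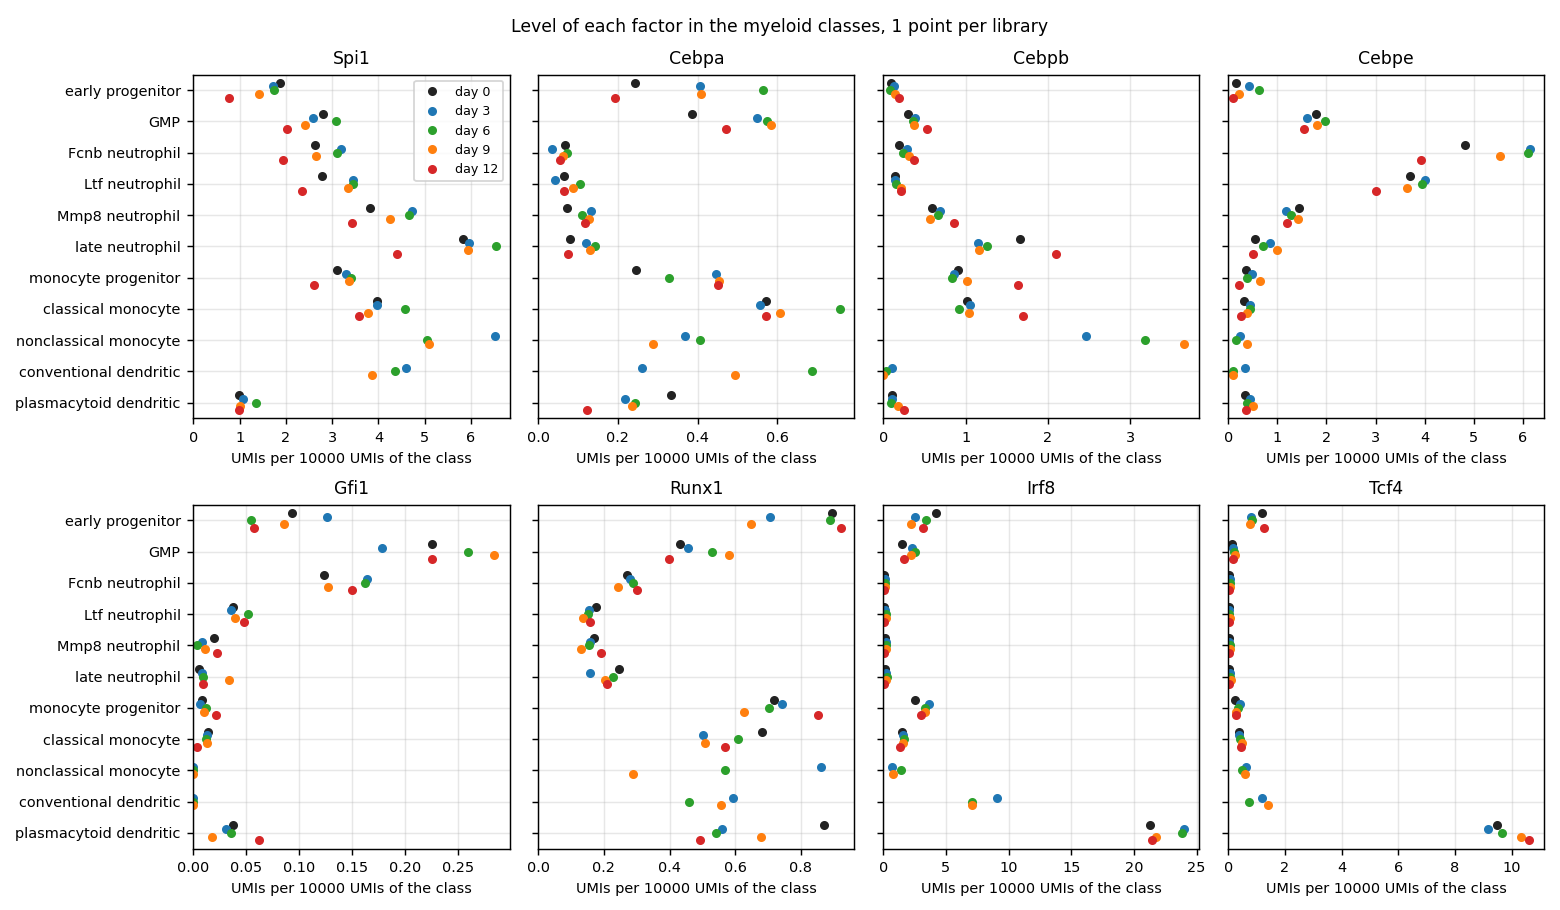
Level of each factor (UMIs per 10000 UMIs, horizontal axis, 1 panel per factor) in the 11 myeloid classes, with 1 point per library colored by day. Irf8 and Tcf4 stand highest in plasmacytoid dendritic-like cells, Cebpe in Fcnb and Ltf neutrophil-like cells, Gfi1 in GMP-like cells and Spi1 in late neutrophil-like and nonclassical monocyte-like cells.

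Spi1 (ENSMUSG00000002111, chr2:91082390-91115756, plus strand, GRCm38) was the most widely detected factor, with 46001 UMIs and at least 1 UMI in 63.0% of all cells. In late neutrophil-like cells its level was 5.83 at day 0, 5.97 at day 3, 6.55 at day 6, 5.94 at day 9 and 4.40 at day 12. In GMP-like cells it was 2.80, 2.60, 3.09, 2.42 and 2.03 in the same order of days. The groups did not overlap, and the level in GMP-like cells was lower in all 5 libraries, by a median log2 ratio of -1.12. Classical monocyte-like cells lay between them at 3.97, 3.98, 4.58, 3.77 and 3.57. Early progenitor-like cells held 1.86, 1.73, 1.73, 1.42 and 0.770, below GMP-like cells without overlap. Plasmacytoid dendritic-like cells were lowest of the 11 myeloid classes by median at 0.982, 1.07, 1.35, 0.999 and 0.988, near the 0.527 to 0.831 of T-like cells. Along the order of medians, late neutrophil-like and nonclassical monocyte-like cells (5.04 to 6.51 in 3 libraries) overlapped. Conventional dendritic-like, Mmp8 neutrophil-like and classical monocyte-like cells also overlapped, each with its neighbour.

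Cebpa (ENSMUSG00000034957, chr7:35119293-35121928, plus strand) had 3511 UMIs in 8.76% of cells. Its level in GMP-like cells was 0.386 at day 0, 0.549 at day 3, 0.575 at day 6, 0.583 at day 9 and 0.470 at day 12, from 111 to 215 UMIs per library. Classical monocyte-like cells held 0.572, 0.557, 0.758, 0.607 and 0.573, which overlapped the GMP-like levels. Across the 4 neutrophil classes the level was 0.0341 to 0.143, against 0.0176 to 0.105 in T-like cells. GMP-like cells stood above late neutrophil-like cells in all 5 libraries, by a median log2 ratio of 2.20 (range 2.01 to 2.67). Neighbours in the order of medians overlapped throughout, so the order of monocyte, progenitor and dendritic classes was not resolved.

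Cebpe (ENSMUSG00000052435, chr14:54710360-54712174, minus strand) had 30913 UMIs in 32.3% of cells. The level in Fcnb neutrophil-like cells was 4.83 at day 0, 6.14 at day 3, 6.11 at day 6, 5.53 at day 9 and 3.93 at day 12. It was 3.70, 4.02, 3.94, 3.64 and 3.01 in Ltf neutrophil-like cells, 1.78, 1.61, 1.98, 1.80 and 1.54 in GMP-like cells and 1.44, 1.18, 1.28, 1.41 and 1.2 in Mmp8 neutrophil-like cells. Late neutrophil-like cells held 0.541, 0.842, 0.700, 1.0 and 0.509. Fcnb and Ltf neutrophil-like cells overlapped, and each later step of this order was without overlap. Classical monocyte-like and monocyte progenitor-like cells held 0.225 to 0.640, within or near the 0.228 to 0.569 of T-like cells. After thinning each cell to 1000 UMIs, 16.7% to 19.1% of GMP-like cells had a Cebpe UMI against 1.42% to 4.59% of T-like cells. The median UMI count before thinning was 14420.5 to 17125 per GMP-like cell and 2102.5 to 3019 per T-like cell.

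Gfi1 (ENSMUSG00000029275, chr5:107716657-107726036, minus strand) was the factor with the fewest UMIs, 1112 in 3.16% of cells. Its level in GMP-like cells was 0.226 at day 0, 0.178 at day 3, 0.259 at day 6, 0.285 at day 9 and 0.226 at day 12, from 36 to 105 UMIs per library. Fcnb neutrophil-like cells held 0.124, 0.164, 0.162, 0.128 and 0.150, below GMP-like cells without overlap. In classical monocyte-like cells the level was 0.00365 to 0.0142, from 1 to 6 UMIs per library, lower than the 0.0729 to 0.123 of T-like cells, which are known to use Gfi1 themselves. The ratio of GMP-like to classical monocyte-like cells was 15.9 (6.91 to 44.8) at day 0, 13.7 (5.36 to 44.7) at day 3, 21.9 (8.86 to 69.7) at day 6, 22.1 (9.19 to 69.6) at day 9 and 61.9 (10.7 to 2484) at day 12, the last resting on 1 UMI. No Gfi1 UMI was counted in nonclassical monocyte-like or conventional dendritic-like cells.

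Irf8 (ENSMUSG00000041515, chr8:120736358-120756694, plus strand) had 23894 UMIs in 22.1% of cells. In plasmacytoid dendritic-like cells the level was 21.3 at day 0, 24.0 at day 3, 23.8 at day 6, 21.8 at day 9 and 21.5 at day 12. Conventional dendritic-like cells held 9.11, 7.06 and 7.06 at days 3, 6 and 9, and monocyte progenitor-like cells 2.56, 3.67, 3.37, 3.32 and 3.03 over the 5 days. These classes did not overlap. Early progenitor-like cells held 4.18, 2.54, 3.41, 2.24 and 3.17, GMP-like cells 1.49, 2.31, 2.55, 2.19 and 1.65, and classical monocyte-like cells 1.48, 1.61, 1.63, 1.58 and 1.34, each overlapping its neighbour. The 4 neutrophil classes held 0.0435 to 0.325, at or below the 0.274 to 0.664 of T-like cells, so their Irf8 was read as background. B-like cells, which also use IRF8, held 1.78 to 2.17 and NK-like cells 1.90 to 3.67, so both overlapped GMP-like cells.

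Tcf4 (ENSMUSG00000053477, chr18:69343356-69689079, plus strand) had 7686 UMIs in 11.7% of cells. Its level in plasmacytoid dendritic-like cells was 9.48 at day 0, 9.15 at day 3, 9.64 at day 6, 10.3 at day 9 and 10.6 at day 12. The next myeloid class, conventional dendritic-like cells, held 0.719 to 1.39 and did not overlap it. Pro/pre-B-like cells held 0.693 to 1.69 and B-like cells 0.826 to 1.12, so both overlapped conventional dendritic-like cells. Early progenitor-like cells held 0.762 to 1.27, the neutrophil classes 0.0251 to 0.0925 and T-like cells 0.0411 to 0.226.

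Runx1 (ENSMUSG00000022952, chr16:92601466-92826149, minus strand) had 5963 UMIs in 15.2% of cells. Early progenitor-like cells held 0.895 at day 0, 0.705 at day 3, 0.889 at day 6, 0.648 at day 9 and 0.923 at day 12. Monocyte progenitor-like cells held 0.625 to 0.851, GMP-like cells 0.397 to 0.581 and Ltf neutrophil-like cells 0.135 to 0.175. Among neighbours in the order of medians, only GMP-like and Fcnb neutrophil-like cells (0.244 to 0.30) did not overlap.

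Cebpb (ENSMUSG00000056501, chr2:167688915-167690418, plus strand) had 8005 UMIs in 18.8% of cells. It was highest in nonclassical monocyte-like cells, at 2.46, 3.17 and 3.65 at days 3, 6 and 9. Late neutrophil-like cells held 1.66 at day 0, 1.15 at day 3, 1.25 at day 6, 1.16 at day 9 and 2.1 at day 12. Classical monocyte-like cells held 1.02, 1.05, 0.919, 1.04 and 1.70, monocyte progenitor-like cells 0.911, 0.858, 0.833, 1.02 and 1.64, and GMP-like cells 0.306, 0.391, 0.363, 0.372 and 0.532. The day 12 library was the highest of the 5 in each of these last 4 classes. Conventional dendritic-like cells were lowest by median, at 0.111, 0.0327 and 0.

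The first comparison asked how the factors differ between progenitors and mature neutrophils. A gene was called where the ratio of levels within a library was at least 2-fold the same way in all 5 libraries. In GMP-like against late neutrophil-like cells, 4 of 8 factors were called higher, where 41.5% of 9631 tested genes were: Gfi1 (median log2 ratio 4.70), Irf8 (3.39), Cebpa (2.20) and Tcf4 (1.36). The share of factors was thus near the background. The Gfi1 ratio rests on 1 to 8 UMIs per library in late neutrophil-like cells, and the Irf8 and Tcf4 levels of those cells were within or below the range of T-like cells, so these ratios compare GMP-like cells with background. Spi1 (-1.12) and Cebpb (-1.79) were called lower, where 10.2% of genes were. Cebpe (1.5) and Runx1 (1.21) were not called. In early progenitor-like against late neutrophil-like cells the split was alike: Irf8, Tcf4, Gfi1, Runx1 and Cebpa were called higher, 5 of 8 where 42% of 8693 genes were, and Spi1 and Cebpb lower, where 10% of genes were.

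Cebpe had a peak within the neutrophil series. It was higher in Fcnb neutrophil-like than in GMP-like cells (median log2 ratio 1.62), where 2.46% of 9934 genes were called higher, and lower in Mmp8 than in Ltf neutrophil-like cells (-1.37), where 0.812% of 8748 genes were called lower. From Fcnb to late neutrophil-like cells Cebpe differed by a median log2 ratio of 2.95 (range 2.47 to 3.16), and Gfi1 by 4.19; 17.1% of 9254 genes were called higher in Fcnb neutrophil-like cells. Cebpb ran the other way, at -2.41 in the same contrast, where 11.7% of genes were called lower. It was higher in Mmp8 than in Ltf neutrophil-like cells (2.03), where 2.89% of genes were called higher. Gfi1 was lower in Ltf than in Fcnb neutrophil-like cells (-1.70), a direction called for 11.7% of 9538 genes. Cebpa (-3.09), Irf8 (-3.99) and Tcf4 (-1.72) were lower in Fcnb neutrophil-like than in GMP-like cells, a direction called for 23.8% of genes. No factor was called between Mmp8 and late neutrophil-like cells, where 2.04% of 7882 genes were called higher and 0.241% lower in late neutrophil-like cells.

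The second comparison set the monocyte branch against the neutrophil branch. In classical monocyte-like against Ltf neutrophil-like cells, Tcf4 (median log2 ratio 3.49), Irf8 (3.46), Cebpa (3.15), Cebpb (2.81) and Runx1 (1.91) were called higher, 5 of 8 factors where 46.1% of 10109 genes were. Cebpe (-3.26) and Gfi1 (-1.62) were called lower, 2 of 8 factors where 4.26% of genes were. The Gfi1 ratio rests on 19 to 27 UMIs per library in Ltf neutrophil-like cells and 1 to 6 in classical monocyte-like cells. The Gfi1 level in Ltf neutrophil-like cells, 0.0356 to 0.052, was below the 0.0729 to 0.123 of T-like cells. It was also below the 0.0888 to 0.162 of free RNA, which is described below. Whether this Gfi1 level was more than free RNA gives was not tested. Spi1 differed by 0.41 and was not called. The Irf8 ratio ranged from 2.77 to 4.12. For all 5 factors called higher the levels in Ltf neutrophil-like cells were within or below the range of T-like cells. For Tcf4 they were 0.0251 to 0.0657 against 0.0411 to 0.226. These ratios thus compare classical monocyte-like cells with levels no higher than the T-like range. For Runx1 T-like cells held 0.319 to 0.545, and whether that is a background level was not tested. Whether the Runx1 and Cebpb of Ltf neutrophil-like cells were free RNA alone was not tested either.

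Against GMP-like cells, classical monocyte-like cells were higher in Cebpb (1.48) and Tcf4 (1.31), where 10.2% of 10299 genes were called higher. They were lower in Cebpe (-2.24) and Gfi1 (-4.45), where 8.34% were called lower. Spi1 differed by 0.61 and was not called. Cluster c11, named monocyte progenitor-like although it passed 6 classical monocyte markers and 5 of its own, was higher than GMP-like cells in Cebpb (1.46), where 6.07% of 9725 genes were called, and lower in Cebpe (-2.30) and Gfi1 (-4.74), where 2.89% were called. Tcf4 was not called there (0.76). In cluster c11 Gfi1 rests on 1 to 3 UMIs per library. Between cluster c11 and classical monocyte-like cells no factor was called, where 1.69% of 9948 genes were called higher and 5.1% lower in classical monocyte-like cells. Against early progenitor-like cells, GMP-like cells were higher in Cebpe (2.98) and Cebpb (1.63), where 2.32% of 9595 genes were called, and lower in Tcf4 (-2.36), where 4.42% were called.

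Plasmacytoid dendritic-like cells stood apart by Irf8 and Tcf4. Against classical monocyte-like cells the median log2 ratio was 3.87 for Irf8 (range 3.78 to 4.0) and 4.59 for Tcf4 (4.38 to 4.70), where 8.28% of 9907 genes were called higher. Spi1 (-1.90) and Cebpb (-3.19) were lower, where 6.44% were called lower. Against conventional dendritic-like cells, which had 33 to 50 cells in 3 libraries, Irf8 (1.63) and Tcf4 (2.95) were again higher, where 7.44% of 6651 genes were called in those 3 libraries, and Spi1 (-1.95) was lower, where 2.84% were.

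**Figure D2:**
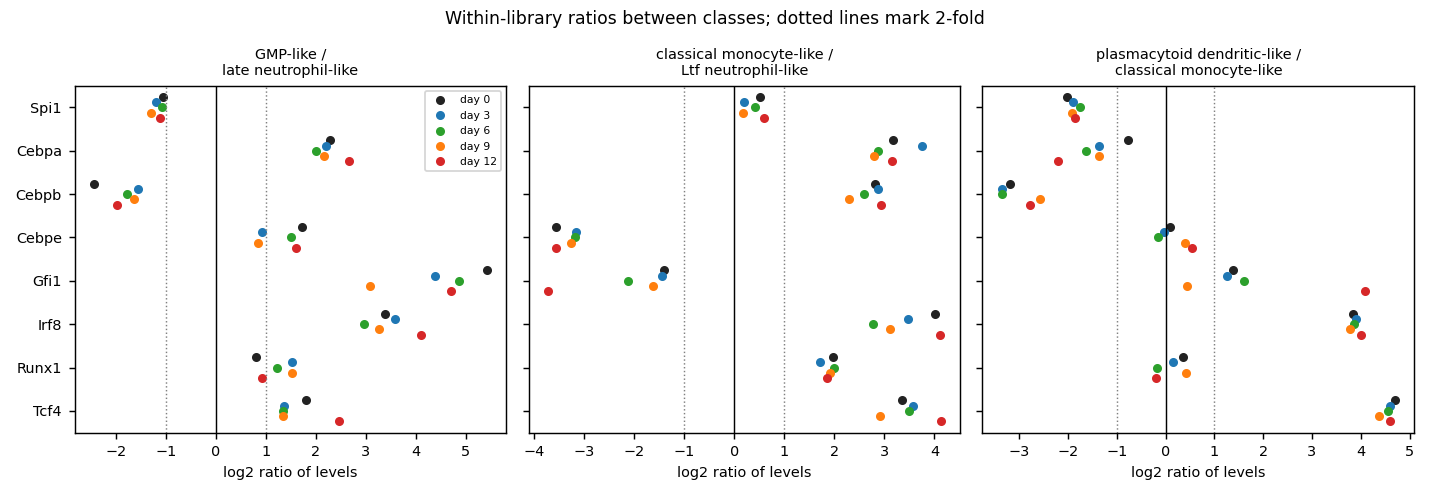
Log2 ratio of the level of each factor between classes within a library (horizontal axis), 1 point per library colored by day, for GMP-like against late neutrophil-like, classical monocyte-like against Ltf neutrophil-like and plasmacytoid dendritic-like against classical monocyte-like cells. Dotted lines mark 2-fold; Irf8 and Tcf4 lie beyond 3.78 in every library of the right panel, and Spi1 lies below -1 in every library of the left panel.

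Genes that textbooks place downstream of the factors were counted in the same contrasts. Of the primary granule list (8 genes, 7 tested), 4 were higher and 1 lower in GMP-like than in late neutrophil-like cells, where 41.5% of all genes were higher and 10.2% lower, so the count was near that of genes in general. The median log2 ratio was 6.09 over the list against 1.14 over all tested genes. Elane, which encodes neutrophil elastase, had a median level of 60.4 against 0.783 (6.44), and Prtn3, proteinase 3, differed by 6.40. Csf3r, the G-CSF receptor, was lower (-3.85). These proteases were among the markers that named the GMP-like class, and Csf3r was a marker of late neutrophil-like cells. Of the secondary granule list taken as C/EBPε targets (7 tested), none was higher and 4 were lower, against the same shares of all genes, with a list median of -1.39; Mmp9 (-5.09) and Mmp8 (-4.85), which encode granule metalloproteinases, differed most. In Fcnb neutrophil-like against GMP-like cells 6 of those 7 were higher, where 2.46% of all genes were, with a list median of 2.56 against -0.70 over all genes. In the same contrast 5 of the 7 primary granule genes were lower, where 23.8% of all genes were.

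The IRF8 target list (8 tested) had 7 genes higher in classical monocyte-like than in Ltf neutrophil-like cells, where 46.1% of all genes were, with a median of 4.71 against 1.30 over all genes. Ly86, which encodes MD-1 and was a marker of the monocyte class, differed by 6.97 and Ctss, cathepsin S, by 5.63. Cybb, a subunit of the phagocyte oxidase, differed by 0.01 and was not called. Of the secondary granule genes 6 of 7 were lower in the same contrast, with a median of -4.14, where 4.26% of all genes were, among them Ltf, lactoferrin (-4.22), and Ngp (-4.17). Ltf, Camp, Ngp and Lcn2 were markers that named the Ltf neutrophil-like class, so their direction was set by the naming. In plasmacytoid dendritic-like against classical monocyte-like cells the E2-2 target list (7 of 8 tested) had 5 genes higher and none lower, where 8.28% of all genes were higher and 6.44% lower, with a median of 4.04 against 0.23 over all genes. Siglech differed by 8.39 and Spib, an ETS factor of plasmacytoid dendritic cells, by 5.98; Siglech and Bst2 were markers of the class. The IRF8 target list did not follow Irf8 there: 1 of 8 was higher and 2 were lower, with a median of -0.98.

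Other regulators were counted by family. In GMP-like against late neutrophil-like cells 41.5% of all genes were called higher and 10.2% lower, so counts such as 3 of 6, 2 of 5 or 2 of 4 higher are near the share over all genes. There, 5 of 6 tested RUNX family members and cofactors were higher, led by Cbfa2t3 (2.89), and 3 of 6 other progenitor factors were higher, led by Myc (5.0) and Myb (4.01). None of 5 C/EBP family members and partners was higher and 1, Ddit3 (-1.17), was lower. Of 9 other ETS factors, Erg was higher and Ets2 lower. None of 6 other IRF genes was higher and 2 were lower. Of the E and Id proteins 2 of 5 were higher, and of the GFI family and corepressors 2 of 4. In classical monocyte-like against Ltf neutrophil-like cells, 8 of 11 tested monocyte and dendritic factors were higher, where 46.1% of all genes were, among them Zeb2 (5.68), and none was lower, where 4.26% were. In plasmacytoid dendritic-like against classical monocyte-like cells 1 of those 11, Bcl11a (3.77), was higher and 3 were lower, against 8.28% and 6.44% of all genes. The dissociation and stress genes also moved with these contrasts: 12 of 20 were lower in GMP-like than in late neutrophil-like cells, and 11 of 20 were higher in classical monocyte-like than in Ltf neutrophil-like cells. Their part in the differences of the factors was not tested.

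GMP-like cells were not uniform in these factors. The class held 4 sub-clusters, which were looked at after the values were seen: c08.0 led by Elane, Prtn3 and Ms4a3 (234 cells), c08.1 led by Elane, Ctsg and Mpo (224 cells), c08.2 led by Ass1, Lgals1 and Prtn3 (220 cells) and c08.3 led by Mpo, Ctsg, Prtn3 and Cd34 (186 cells). The cluster c08.2 carried 4 GMP-like markers, as many monocyte progenitor markers and as many classical monocyte markers. The cluster c08.0 carried 5 GMP-like and 3 Fcnb neutrophil markers, and Fcnb was among its top genes. The clusters c08.1 and c08.3 carried 7 GMP-like markers each. The sub-clusters thus differ in how near they stand to the neutrophil and monocyte classes. The part of this in the factor differences was not tested. In c08.0 the Irf8 level was 0.0465 at day 0, 0.118 at day 3, 0.157 at day 6, 0.157 at day 9 and 0.0547 at day 12. In c08.2 it was 3.34, 4.17, 4.41, 4.39 and 4.42 in the same order. Over the 5 libraries the median Irf8 level was 0.118 in c08.0, 0.207 in c08.1, 4.39 in c08.2 and 3.42 in c08.3.

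Gfi1 and Cebpe were high where Irf8 was low. Gfi1 had medians of 0.471 and 0.399 in c08.0 and c08.1 against 0.0189 and 0.0693 in c08.2 and c08.3, the last pair from 0 to 5 UMIs and 2 to 10 UMIs per library. Cebpe had medians of 4.84 and 2.08 against 0.443 and 0.256. In all 4 pairings of c08.0 or c08.1 with c08.2 or c08.3, Gfi1 and Cebpe were at least 2-fold higher in every library, where 1.34% to 3.17% of genes were called higher, and Irf8 was lower, where 1.53% to 10.1% were called lower. Tcf4 was called lower in c08.0 than in both c08.2 and c08.3. Spi1, Cebpa, Cebpb and Runx1 were called in none of the pairings, with Spi1 medians of 3.29, 2.14, 3.05 and 1.97 and Cebpa medians of 0.260, 0.598, 0.471 and 0.662 from c08.0 to c08.3.

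**Figure D3:**
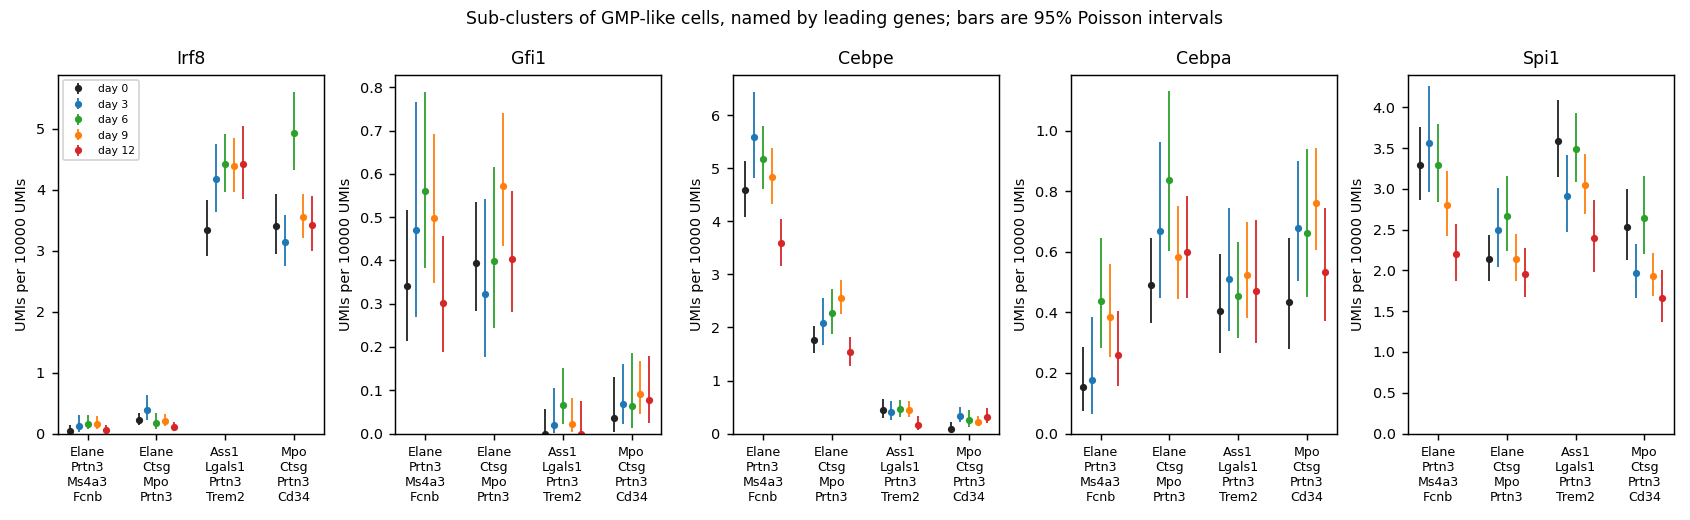
Levels of Irf8, Gfi1, Cebpe, Cebpa and Spi1 (UMIs per 10000 UMIs, vertical axes) in the 4 GMP-like sub-clusters by day, with 95% exact Poisson intervals. Irf8 is above 3 in c08.2 and c08.3 in every library and below 0.4 in c08.0 and c08.1, and Gfi1 and Cebpe stand the other way round.

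The same UMIs of the same cells were also read cell by cell, which restates the sub-cluster difference and is not a second observation. The 864 GMP-like cells of the 5 libraries were pooled first, so the intervals of the pooled shares leave out differences between mice. Of the 457 cells with an Irf8 UMI, 11.6% (8.81% to 14.9%) also had a Gfi1 UMI. Of the 407 cells without, 41.8% (36.9% to 46.7%) had one. By library the share with Irf8 was 6.59% at day 0, 10.9% at day 3, 13.3% at day 6, 15.2% at day 9 and 9.46% at day 12, and the share without was 38.6%, 31.4%, 57.4%, 47.4% and 36.8%. The share was lower in cells with Irf8 in 5 of 5 libraries. Cebpe was found in 40.7% of cells with Irf8 and 90.2% of cells without, and again lower with Irf8 in every library. For comparison, 0.207% to 0.862% of classical monocyte-like cells had a Gfi1 UMI at a median of 5290.5 to 7334 UMIs per cell, and 4.70% to 11.3% of T-like cells had an Irf8 UMI. With 843 of the cells thinned to 5000 UMIs each, the shares were 2.93% and 16.1% for Gfi1 and 17.3% and 62.0% for Cebpe.

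The size of this difference varied with the cell filter. The median difference over libraries was -32.0 percentage points for Gfi1. It was -1.96 to -20.9 points under 3 other cell filters, 1 of them chosen after seeing the data, in which the GMP-like class held 507 to 522 cells, 19.9% to 29.0% of them with Irf8, and the monocyte progenitor-like class was larger. Why the value moved was not tested. The remaining factor pairs differed less with the filter used here, but not under every filter: the median difference for Spi1 and Gfi1 was 0.60 points here and 16.2 to 20.8 points under those 3 filters, and that for Cebpa and Cebpe was -6.57 points here and 10.01 points with no mitochondrial limit. The Spi1 and Gfi1 difference was also larger with a mitochondrial limit per library (value given below), where 65.0% of 804 GMP-like cells had Irf8. Runx1 was found in 52.2% (47.4% to 57.1%) of cells with Cebpa and 43.7% (39.0% to 48.5%) of cells without, and in 20.4% and 23.3% after thinning. Cebpe was found in 63.1% and 64.9% of cells with and without Cebpa, and Gfi1 in 26.3% (23.3% to 29.5%) of cells with Spi1 and 18.2% (9.08% to 30.9%) of the 55 cells without.

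**Figure D4:**
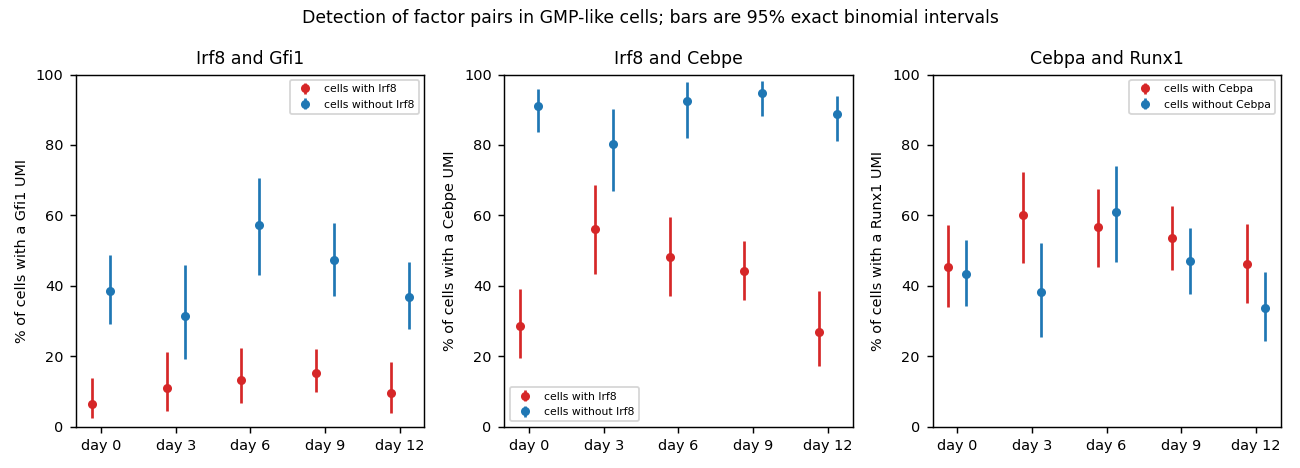
Percent of GMP-like cells with a UMI of the second factor (vertical axis, 0 to 100%) among cells with and without a UMI of the first, per library, with 95% exact binomial intervals. Cells with Irf8 have lower shares with Gfi1 and Cebpe in all 5 libraries, while the intervals of cells with and without Cebpa overlap in each library for Runx1.

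The study's own question was how marrow cells differ from day 0 as leukemia grows. Within a class, a factor's level on a day was set against day 0 where the 2 libraries together held at least 50 UMIs. Of 223 such combinations, 54 (24.2%) were past 1.5-fold, 40 higher and 14 lower than at day 0. Over all genes, between 9.28% and 27.8% were past 1.5-fold depending on class and day. This share was 27.8% in Fcnb neutrophil-like cells at days 6 and 9 and 24.9% in Ltf neutrophil-like cells at day 9. In most other classes and days it was below the pooled share of the factors. A pooled share is unlike shares of single classes and days, so whether the factors moved more than genes in general was not tested. The interval included 1 in 5 of the 12 Cebpa combinations past 1.5-fold, 2 of 7 for Cebpe, 2 of 16 for Irf8, 2 of 4 for Runx1 and none of 7 for Cebpb and for Tcf4. Spi1 was past 1.5-fold in 1 of 36 combinations and Runx1 in 4 of 36, all lower; Gfi1 was past it in none of 8. Cebpb was higher in 7 of 28 and lower in none, Cebpa higher in 10 of 25 and lower in 2, Cebpe higher in 6 of 33 and lower in 1, Tcf4 higher in 5 of 22 and lower in 2, and Irf8 higher in 12 of 35 and lower in 4. Part of these lay in neutrophil classes, whose Cebpa, Irf8 and Tcf4 levels were near or below those of T-like cells. There Cebpa was higher in 3 and lower in 2 of 10, Irf8 higher in 10 and lower in 2 of 15, and Tcf4 higher in 2 of 2. The 54 combinations thus include ratios between levels near background.

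Of the 12 combinations with more Irf8, 10 were in neutrophil classes, where the level was at background. Free RNA, taken from barcodes of 10 to 100 UMIs, held Irf8 at 1.33 at day 0, 2.11 at day 3, 2.50 at day 6, 2.06 at day 9 and 0.832 at day 12, which moves with those levels; its part in them was not tested. The other 2 were GMP-like cells, at 1.55-fold of day 0 (1.36 to 1.77) at day 3 and 1.71-fold (1.51 to 1.94) at day 6, where 16.4% and 19.6% of genes were past 1.5-fold. The Irf8-high sub-clusters c08.2 and c08.3 together made up 43.2% (36.1% to 50.6%) of the GMP-like cells at day 0, 56.5% (47.0% to 65.7%) at day 3 and 49.6% (41.0% to 58.3%) at day 6, while the level was higher at day 6 than at day 3. Within c08.2 alone Irf8 was 3.34, 4.17 and 4.41 on these days. The part of the makeup in the class level was not tested. Free RNA, at the levels above, moved the same way. Judged by haemoglobin UMIs it made up 4.32% of the GMP-like UMIs at day 0, 6.19% at day 3 and 6.65% at day 6. Its part in the class level was not tested. Early progenitor-like cells had less Irf8 at day 3 (0.609-fold, 0.509 to 0.729) and day 9 (0.536-fold, 0.444 to 0.647), where 16% and 19.8% of genes were past 1.5-fold. That class is mixed too: Irf8 was 6.20 in its cluster c15.1, led by Dntt and Bex6, at day 3 and 0.487 in c15.2, led by Pf4 and Hlf, at day 9, the single libraries in which each reached 20 cells. The cluster c15.1 held 19 of 44 cells at day 0, 23 of 86 at day 3, 18 of 85 at day 6, 12 of 105 at day 9 and 19 of 53 at day 12; the part of this makeup in the Irf8 level was not tested.

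Cebpa in cluster c11, the monocyte progenitor-like cells, was 1.83-fold of day 0 (1.17 to 2.91) at day 3, 1.85-fold (1.21 to 2.92) at day 9 and 1.84-fold (1.17 to 2.96) at day 12, against 29 UMIs at day 0, where 18%, 18.1% and 12.2% of genes were past 1.5-fold. In GMP-like cells it was past 1.5-fold at day 9 alone (1.51-fold, 1.197 to 1.92), where 19.2% of genes were. In early progenitor-like cells it was 2.33-fold (1.25 to 4.66) at day 6, where 19.8% of genes were past 1.5-fold, from 13 UMIs at day 0. The cluster c15.0, led by Cpa3 and Cd34, held Cebpa at 0.662 to 0.867, against 0.321 to 0.379 in the 3 other clusters that reached 20 cells in a library. It held 5 of the 44 early progenitor-like cells at day 0 and 30 of 85 at day 6, and the part of this makeup was not tested. Cebpe in late neutrophil-like cells was 1.56-fold (1.22 to 1.99) at day 3 and 1.85-fold (1.46 to 2.35) at day 9, where 13.5% and 16.4% of genes were past 1.5-fold. The summed level of the Ltf neutrophil-like markers in late neutrophil-like cells was 147 at day 0, 227 at day 3, 179 at day 6, 250 at day 9 and 184 at day 12, so it was highest on the same days as Cebpe; its part in the Cebpe level was not tested. Runx1 in plasmacytoid dendritic-like cells was 0.643-fold (0.427 to 0.972) at day 3 and 0.622-fold (0.417 to 0.931) at day 6, where 16.5% and 18.2% were. Cebpb in Fcnb neutrophil-like cells was 1.53-fold (1.18 to 1.99) at day 3, 1.70-fold (1.32 to 2.19) at day 9 and 1.97-fold (1.54 to 2.53) at day 12, where 20.2%, 27.8% and 10.8% of genes were past 1.5-fold.

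Cebpb and Spi1 set the day 12 library apart, an observation made after the values were seen. Cebpb was highest at day 12 in 9 of 9 classes, which held for 0.109% of 4580 genes. Against the nearest other day it was 1.61-fold in classical monocyte-like cells (1.41 to 1.84), 1.61-fold in monocyte progenitor-like cells (1.33 to 1.95), 1.36-fold in GMP-like cells (1.03 to 1.81), 1.27-fold in late neutrophil-like cells (1.10 to 1.46) and 1.25-fold in Mmp8 neutrophil-like cells (1.04 to 1.5). In the other 4 classes (early progenitor-like, Fcnb and Ltf neutrophil-like and plasmacytoid dendritic-like) the interval included 1. Free RNA held Cebpb at 0.402, 0.399, 0.405, 0.439 and 0.644 from day 0 to day 12, so it too was highest at day 12, and with free RNA subtracted Cebpb was highest at day 12 in 5 of the 9 classes.

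Spi1 was lowest at day 12 in 8 of 9 classes, all but plasmacytoid dendritic-like cells, of which day 12 held 29 with 16 Spi1 UMIs. Being lowest at day 12 in at least 8 of the 9 classes held for 2.64% of 4580 genes and in all 9 for 1.14%, and in single classes day 12 was the lowest library for 20.8% to 36.0% of genes. Against the nearest day the level was 0.542-fold (0.373 to 0.773) in early progenitor-like cells, 0.755-fold (0.692 to 0.822) in late neutrophil-like cells and 0.838-fold (0.752 to 0.932) in GMP-like cells. In classical monocyte-like cells it was 0.948-fold (0.873 to 1.03), an interval that includes 1. Free RNA held Spi1 at 2.28, 2.71, 3.29, 2.40 and 2.19 from day 0 to day 12, so it was lowest at day 12 too; its part was not tested. The summed level of the stress genes was highest at day 0 in all 9 classes, for example 121, 58.2, 57.0, 65.2 and 88.6 in classical monocyte-like cells from day 0 to day 12; its part in the day differences was not tested.

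**Figure D5:**
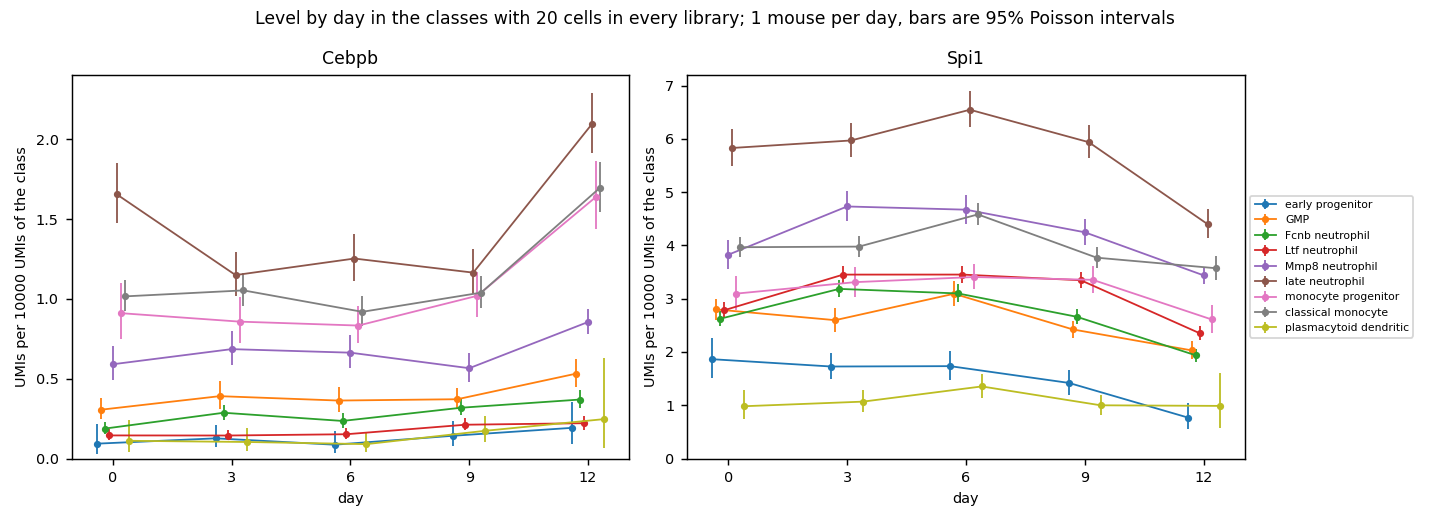
Levels of Cebpb and Spi1 (UMIs per 10000 UMIs, vertical axis) by day in the 9 classes present in all 5 libraries, with 95% exact Poisson intervals. Cebpb is highest at day 12 in each class, most clearly in classical monocyte-like and monocyte progenitor-like cells, and Spi1 is lowest at day 12 in all classes but plasmacytoid dendritic-like cells.

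Other genes with patterns most like each factor were found by Pearson r of log2 levels over 78 class-by-library profiles from 18 classes and 3187 genes; profiles of 1 library share its depth and free RNA, so r is a description. Cebpe ran with Gca (r = 0.93) and the secondary granule genes Camp (0.93) and Ngp (0.90). Spi1 ran with Alox5ap (0.90) and Taldo1 (0.88), and Irf8 with Itpr1 (0.89), Bst2 (0.89) and Cbfa2t3 (0.88). Tcf4 ran with Bcl11a (0.86), Atp13a2 (0.86) and Irf8 itself (0.85), and Cebpb with Gm9733 (0.84), Sat1 (0.84) and Hmox1 (0.82). Runx1 ran with Nenf, Morf4l2 and Uqcc2 (0.81 each), Cebpa with Ccl9 (0.78), Ms4a6c (0.77) and Sgk3 (0.76), and Gfi1 less closely with Ms4a3 (0.61), Prss57 (0.61) and Myb (0.58). Among the factors themselves, Irf8 and Tcf4 were most alike, Spi1 and Cebpb followed (0.61), and Cebpe and Irf8 were most unlike (-0.60).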

How the data were processed

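Single-cell RNA-seq was done on marrow of 5 mice. Per the submitters' processing notes, the authors aligned reads with Cell Ranger to mm10 and deposited unfiltered UMI count matrices, which were used as deposited. Barcodes with at least 500 UMIs and at most 10% mitochondrial UMIs were kept. Using Python 3.11.15 and scanpy 1.11.5, the 1000 most variable genes of each library were taken, without the factors and listed regulators. Those found in at least 2 libraries gave 20 components, a 20-neighbour graph and Leiden clusters at resolution 0.6. Large enough clusters from a fixed list of class names, GMP-like and early progenitor-like among them, were split again at the same resolution. Clusters were named where at least 3 markers were found in at least 20% of cells at at least 2 times the level of the other cells. Among such names the one with the largest mean log2 ratio was taken. A cluster that matched classical monocytes best was renamed monocyte progenitor-like where it passed at least 3 progenitor markers and both cycling genes, Mki67 and Top2a. Cluster c11 got its name by this rule. Counts were summed per class and library, in UMIs per 10000. Intervals are exact Poisson or binomial (95%) and cover counting error only. Class ratios were called at 2-fold in all libraries and day ratios at 1.5-fold with at least 50 UMIs; 1 mouse per day allows no test. Named genes are the factors, the 3 most similar genes of each and, per list and contrast, the extreme members, of which some are not reported here; the sub-clusters were chosen after their values were seen. The factors, lists and contrasts were chosen with earlier results of these data known. Calls were tested on simulated data.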

Additional observations from a re-analysis of the deposited data

How the results depend on the processing

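Over 9 gene contrasts, all 135 alternative values kept their direction and 134 kept their call; the exception was Gfi1 in GMP-like against classical monocyte-like cells, which lost its call with cells thinned to 1000 UMIs. Main median log2 ratios were 3.87 (Irf8) and 4.59 (Tcf4) in plasmacytoid dendritic-like against classical monocyte-like cells, 1.48 (Cebpb, classical monocyte-like against GMP-like), 2.20 (Cebpa) and 1.21 (Runx1) in GMP-like against late neutrophil-like, 2.95 (Cebpe, Fcnb against late neutrophil-like), 4.45 (Gfi1) and 3.46 (Irf8, classical monocyte-like against Ltf neutrophil-like). Co-detection differences were -32.0 points (Irf8 and Gfi1), -50.6 (Irf8 and Cebpe), 0.60 (Spi1 and Gfi1) and -6.57 (Cebpa and Cebpe). Leaving out each library in turn changed no call or direction, with ranges of 3.86 to 3.88 (Irf8 plasmacytoid), 4.22 to 4.46 (Gfi1) and 1.46 to 1.58 (Cebpb) among them. The values below moved by more than the spread between libraries. At 1000 UMIs per barcode they were 3.69 (Irf8 plasmacytoid), 4.45 (Tcf4), 2.09 (Cebpb), -20.9 (Irf8 and Gfi1) and -32.7 (Irf8 and Cebpe). A mitochondrial limit per library gave 1.83 (Cebpb) and 19.4 (Spi1 and Gfi1), and no such limit gave 3.72 (Irf8 plasmacytoid) and 10.01 (Cebpa and Cebpe). Without Scrublet's doublets they were 2.16 (Cebpb), -1.96 (Irf8 and Gfi1), -19.8 (Irf8 and Cebpe) and 19.6 (Spi1 and Gfi1). With 30 components they were 2.59 (Cebpe), 1.99 (Cebpb), 1.55 (Runx1) and 4.47 (Tcf4). Means of scaled counts gave 3.96 (Irf8 plasmacytoid). Thinning to 1000 UMIs gave 2.68 (Cebpa), 3.27 (Cebpe), 4.06 (Irf8 plasmacytoid), 2.04 (Cebpb), 0.66 (Runx1), 4.39 (Tcf4), -1.88 (Irf8 and Gfi1), -18.9 (Irf8 and Cebpe) and 12 of 92 day combinations. Free RNA subtracted gave 2.46 (Cebpa), 3.79 (Cebpe), 6.49 (Gfi1), 10.48 (Irf8 against Ltf neutrophil-like cells, whose level is then at 0, so no bound), 4.03 (Irf8 plasmacytoid), 1.78 (Runx1), 4.72 (Tcf4) and Cebpb highest at day 12 in 5 of 9 classes; the estimated share of free RNA reached 88.6% in a class at day 12, so this correction is unreliable there. A 2-fold limit left 9 of 223 day combinations past it.

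Chosen after seeing the data, leaving out the 5% highest doublet scores gave 5.73 (Gfi1), 1.84 (Cebpb), -2.73 (Irf8 and Gfi1), -23.6 (Irf8 and Cebpe) and 20.8 (Spi1 and Gfi1), and monocyte progenitor-like cells added without a mitochondrial limit gave -31.97 (Irf8 and Cebpe) and 9.02 (Cebpa and Cebpe). The cause was not tested beyond these settings. The contrast planned for Cebpd was not run, since Cebpd was not analysed here. No paired analysis was possible because each day had 1 sample. Depth limits Gfi1 most.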

Other observations

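Classical monocyte-like and late neutrophil-like cells each held a second cluster that differed in these factors, described after the values were seen. Cluster c13, led by Cd83, Cd14 and Nr4a2, held Cebpb at 1.68 to 3.50 UMIs per 10000 against 0.648 to 1.37 in the main monocyte cluster c03, and Runx1 at 0.925 to 1.39 against 0.372 to 0.483. Cebpa, at 0.178 to 0.305 against 0.643 to 0.898, and Irf8, at 0.496 to 0.833 against 1.5 to 1.90, ran the other way, and none of these 4 ranges overlapped between the clusters. Cluster c09 of late neutrophil-like cells, led by the interferon-induced genes Rsad2, Isg15 and Ifit1, held Cebpb at 0.580 to 1.01 against 1.30 to 2.45 in the main cluster c02, without overlap. With both clusters left out, an alternative chosen after seeing the data, Cebpb was still highest at day 12 in 9 of 9 classes and Spi1 lowest in 8.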
